A study of Mus musculus with 12 samples.

Results

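The TGF-beta pathway was followed here through 10 genes: the ligands Tgfb1, Tgfb2 and Tgfb3, the receptors Tgfbr1 and Tgfbr2, the signal carrier Smad3, the inhibitors Smad6 and Smad7, and the ubiquitin ligases Smurf1 and Smurf2. They were picked by gene symbol from the array annotation, which gave them 24 of the 45101 probe sets. The list was drawn up with earlier results of these data known. Each gene was represented by its brightest probe set over the 12 arrays, and all 10 were among the 10269 genes tested. Endothelial cells of newborn wild-type mice had been kept in culture, and 3 groups of 4 arrays were made from such cells. Whether the groups came from the same animals is not given in the labels. The tmTNF cells stably carried a murine TNF mutated so that it is not cleaved from the membrane, which gives chronic exposure. The soluble TNF cells had received 20 ng/ml of the free cytokine for 4 h. The control cells were mock-transfected. All were grown in DMEM with 10% FCS, and serum is itself a source of TGF-beta. Whether the soluble TNF cells had been mock-transfected, whether the tmTNF cells were 1 clone, and whether the arrays of a group came from separate cultures is not given in the labels. How much of the spread between arrays of a group, on which every p-value rests, is technical therefore cannot be told. Cell type markers differed widely within groups, as given below.

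TGF-beta ligands are secreted in a latent form bound to matrix. Once released, a ligand binds Tgfbr2, which recruits and phosphorylates Tgfbr1. Tgfbr1 then phosphorylates Smad2 and Smad3, which join Smad4 and enter the nucleus. Smad6 and Smad7 lack the part that is phosphorylated and block the pathway. Smad7 also brings Smurf1 or Smurf2 to the receptor, which marks it for degradation. In endothelium the pathway can restrain growth, and prolonged signalling can turn endothelial cells towards a mesenchymal state.

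The RefSeq promoter windows of Smurf2, Smad6, Tgfb2 and Smad3 are shown because soluble TNF arrays lay wholly above control arrays for these 4 genes. Each window runs from 250 bases before to 50 bases after a transcription start, 5′ to 3′ on the gene's strand in GRCm38.p6. The windows lie at chr11:106920666-106920965 for Smurf2, chr9:64022010-64022309 for Smad6, chr1:186705940-186706239 for Tgfb2 and chr9:63757945-63758244 for Smad3, all on the minus strand. Capitals mark the SMAD-binding letters CAGAC or GTCTAGAC on either strand.
Smurf2: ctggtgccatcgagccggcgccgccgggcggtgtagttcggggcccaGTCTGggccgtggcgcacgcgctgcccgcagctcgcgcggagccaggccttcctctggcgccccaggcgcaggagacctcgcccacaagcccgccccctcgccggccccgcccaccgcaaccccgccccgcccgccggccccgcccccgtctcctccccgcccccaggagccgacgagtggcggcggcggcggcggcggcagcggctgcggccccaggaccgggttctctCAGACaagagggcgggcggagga
Smad6: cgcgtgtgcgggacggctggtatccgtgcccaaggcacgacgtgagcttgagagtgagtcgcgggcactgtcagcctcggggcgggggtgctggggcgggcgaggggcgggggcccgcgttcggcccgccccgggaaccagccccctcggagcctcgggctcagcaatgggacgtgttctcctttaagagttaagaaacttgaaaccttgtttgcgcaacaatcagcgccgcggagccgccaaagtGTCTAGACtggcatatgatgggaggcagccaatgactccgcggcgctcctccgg
Tgfb2: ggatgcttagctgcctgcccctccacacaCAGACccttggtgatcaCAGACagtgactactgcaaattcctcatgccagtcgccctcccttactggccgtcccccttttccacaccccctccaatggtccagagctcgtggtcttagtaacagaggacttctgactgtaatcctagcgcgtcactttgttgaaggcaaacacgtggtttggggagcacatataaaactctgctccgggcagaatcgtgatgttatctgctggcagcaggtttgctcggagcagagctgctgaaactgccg
Smad3: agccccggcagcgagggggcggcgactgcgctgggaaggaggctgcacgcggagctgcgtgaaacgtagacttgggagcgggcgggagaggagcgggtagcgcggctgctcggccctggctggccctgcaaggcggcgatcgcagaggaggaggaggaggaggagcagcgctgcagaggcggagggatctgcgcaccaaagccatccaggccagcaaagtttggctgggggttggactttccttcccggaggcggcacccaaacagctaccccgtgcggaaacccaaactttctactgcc
CAGAC was found at 2 places in the Smurf2 window and at 2 in the Tgfb2 window. It is common, being present in 49.6% of all 32851 windows. Of the 9 windows used here, which belong to 8 of the 10 genes, 5 held it, also those of Smurf1, Tgfbr1 and Tgfbr2. The palindrome GTCTAGAC, a high-affinity SMAD site known from other promoters, was found in the Smad6 window and in 0.213% of all windows. It starts 4 bases before the Smad6 start site. The AP-1 letters TGANTCA were in 0 of these 9 windows (7.81% of all windows). An NF-kB consensus was in 1 of the 9, that of Tgfb1 (8.46% of all windows). The Smad3 window held 0 matches of the 4 kinds, which says only that these letters are not in it. No match overlapped one of another kind. Tgfb3 and Smad7 are named only.

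All signals below are MAS5 values rescaled so that the 2% trimmed mean of each array, without control probe sets, was 500. Fold changes are differences of log2(signal + 16), on which the change of a weak signal comes out too small. Adjusted p-values come from 1 limma fit of all 3 groups with Benjamini-Hochberg adjustment over all 10269 genes, with a threshold of 0.05.

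The arrays of a group were not alike in cell type markers. The summed signal of 10 endothelial markers was 17360 to 88820 on tmTNF arrays, 18960 to 46920 on soluble TNF arrays and 10760 to 77920 on control arrays, and each of the 10 reached 100 in every group. The 3 arrays with the lowest endothelial level were tmTNF replicates 2 and 4 and control replicate 3. Fibroblast and mural markers summed to 211.8 to 8407 on tmTNF arrays, 222.2 to 665.6 on soluble TNF arrays and 214.1 to 739.6 on control arrays. By the brightest probe set of each of those 8 markers, Lum, Thy1, Fbln1, Myh11 and Cnn1 stayed under 100 on all 12 arrays. Another Fbln1 probe set gave 102.9 on soluble TNF replicate 4. Dcn reached 3276 and 7271 on tmTNF replicates 2 and 4, and Pdgfrb reached 1337 on tmTNF replicate 3. Collagen genes of the TGF-beta target list below were highest outside tmTNF cells. Col1a2 ran from 33.07 to 88.24 in tmTNF, 6.126 to 3248 in soluble TNF and 74.47 to 4009 in control cells. Col3a1 ran from 18.27 to 158.8, 1.607 to 4119 and 5.972 to 4547 in the same groups. Leukocyte markers summed to 5129 to 7565, 573.9 to 1099 and 791.6 to 18790 in tmTNF, soluble TNF and control cells, with Ptprc, Itgam and Tyrobp under 100 on all 12 arrays. Mesothelial markers summed to 170.8 to 14060, 405.3 to 4390 and 331.6 to 10590 in the same groups, and Upk3b, Wt1 and Lrrn4 stayed under 100 throughout. Of every comparison with tmTNF it also holds that 3 Y-linked genes, Eif2s3y, Kdm5d and Uty, gave at least 218.8 on every tmTNF array and at most 39.52 on the 8 other arrays. The part of these differences in the results below was not tested. The Y-linked signal divided the arrays exactly as tmTNF did, so tmTNF and whatever goes with that signal cannot be told apart. In these bulk samples, fewer cells of a type and less RNA per cell cannot be told apart.

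**Figure D1:**
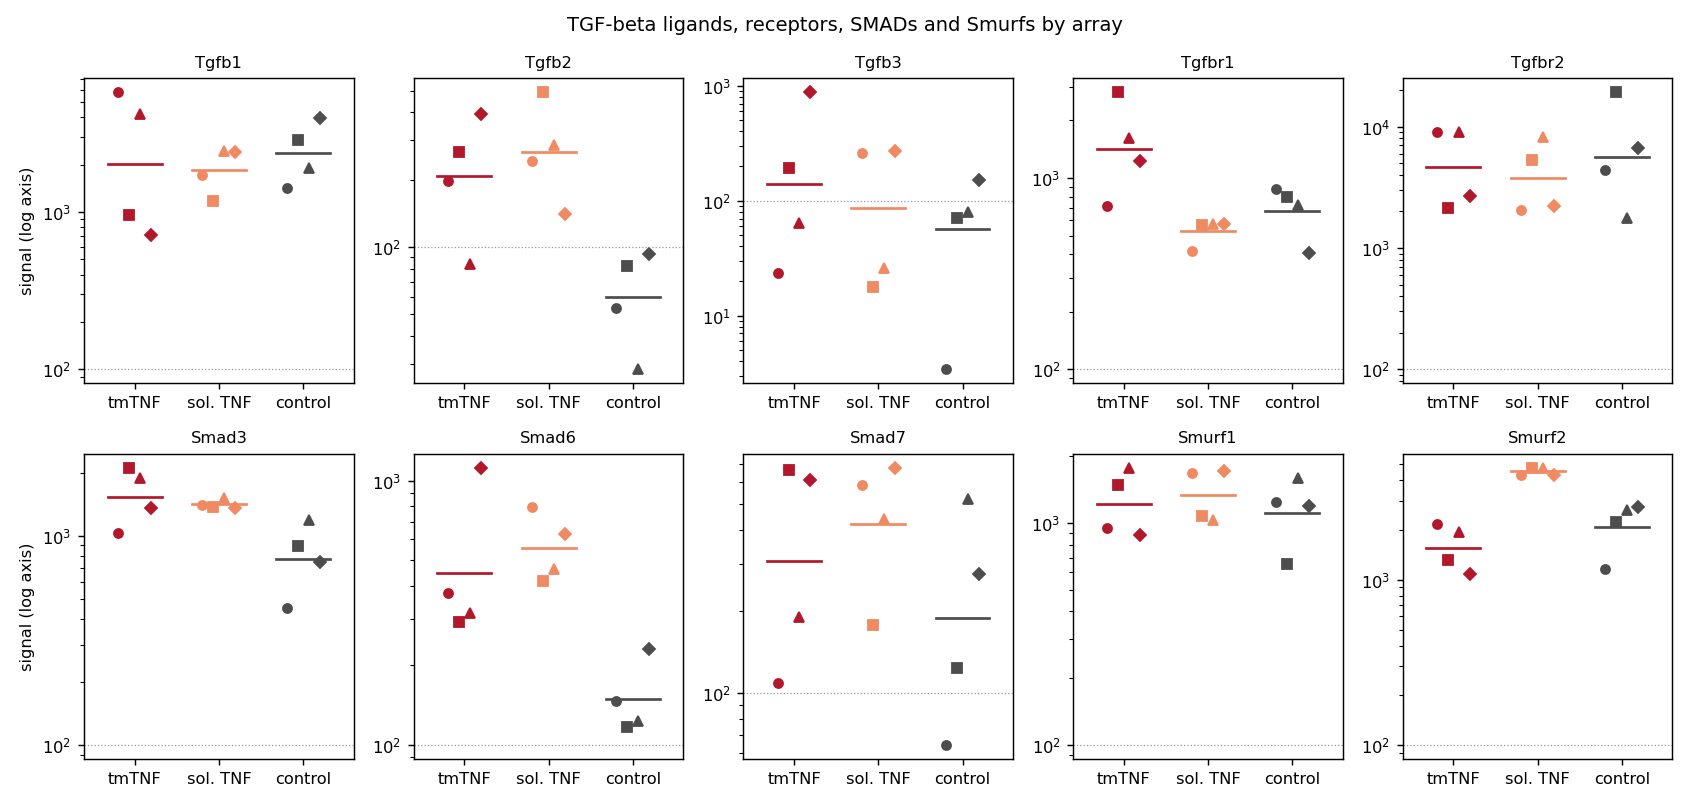
Signal (vertical log axes) of the 10 genes on each array in tmTNF, soluble TNF and control cells. Circles, squares, triangles and diamonds are replicates 1 to 4, the bar is the mean on the log2(signal + 16) scale, and the dotted line is a signal of 100. The 4 Smurf2 values of soluble TNF cells, 4285 to 4746, lie above all others, and the Smad6 values of both exposed groups lie above the 4 controls.

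Smurf2, the ubiquitin ligase, was the 1 gene of the 10 that passed the threshold, and it did so between the exposures. Its signal was 2.87-fold lower with tmTNF than with soluble TNF. Smurf2 signals were 2177, 1313, 1941 and 1078 in tmTNF cells, 4333, 4736, 4746 and 4285 after soluble TNF, and 1166, 2235, 2632 and 2768 in control cells. The soluble TNF arrays lay above all other arrays, and they were close together, with a highest value only 1.11 times the lowest. Means were 1627 ± 517 in tmTNF cells, 4525 ± 250 in soluble TNF cells and 2200 ± 726 in control cells (SD, n = 4 each). The log2 fold change was -1.52 ± 0.29 (SE) for tmTNF minus soluble TNF (limma adjusted p = 0.0348). Smurf2 ranked 64 of 10269 by p in that comparison. In all, 1.22% of genes were called there, 0.263% of genes lower, against 1 of the 10 members.

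Against the controls, Smurf2 passed the threshold in neither exposure. Its log2 fold change was -0.41 ± 0.29 for tmTNF minus control (adjusted p = 0.849) and 1.11 ± 0.29 for soluble TNF minus control (adjusted p = 0.235). The tmTNF and control arrays overlapped, and control replicate 1, at 1166, was the lowest control. All 3 Smurf2 probe sets had the soluble TNF arrays wholly above both other groups. The log2 fold changes of the other 2 for tmTNF minus soluble TNF were -1.33 ± 0.34 (adjusted p = 0.072) and -1.25 ± 0.28 (adjusted p = 0.0574), so neither passed on its own.

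The Smurf2 call was close to the threshold. It was kept in 17 of 27 alternative settings, and its log2 fold change stayed between -1.75 and -1.13 in all of them. It was lost with the mean of the 3 probe sets (adjusted p = 0.0501) and with the most variable probe set (adjusted p = 0.0807). It was also lost without tmTNF replicate 2, 3 or 4 (adjusted p = 0.105, 0.0614 and 0.0616) and without soluble TNF replicate 1, 2, 3 or 4 (adjusted p = 0.0921, 0.111, 0.0801 and 0.078). Without the 3 arrays of lowest endothelial level it was -1.13 ± 0.31 (adjusted p = 0.0978).

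**Figure D2:**
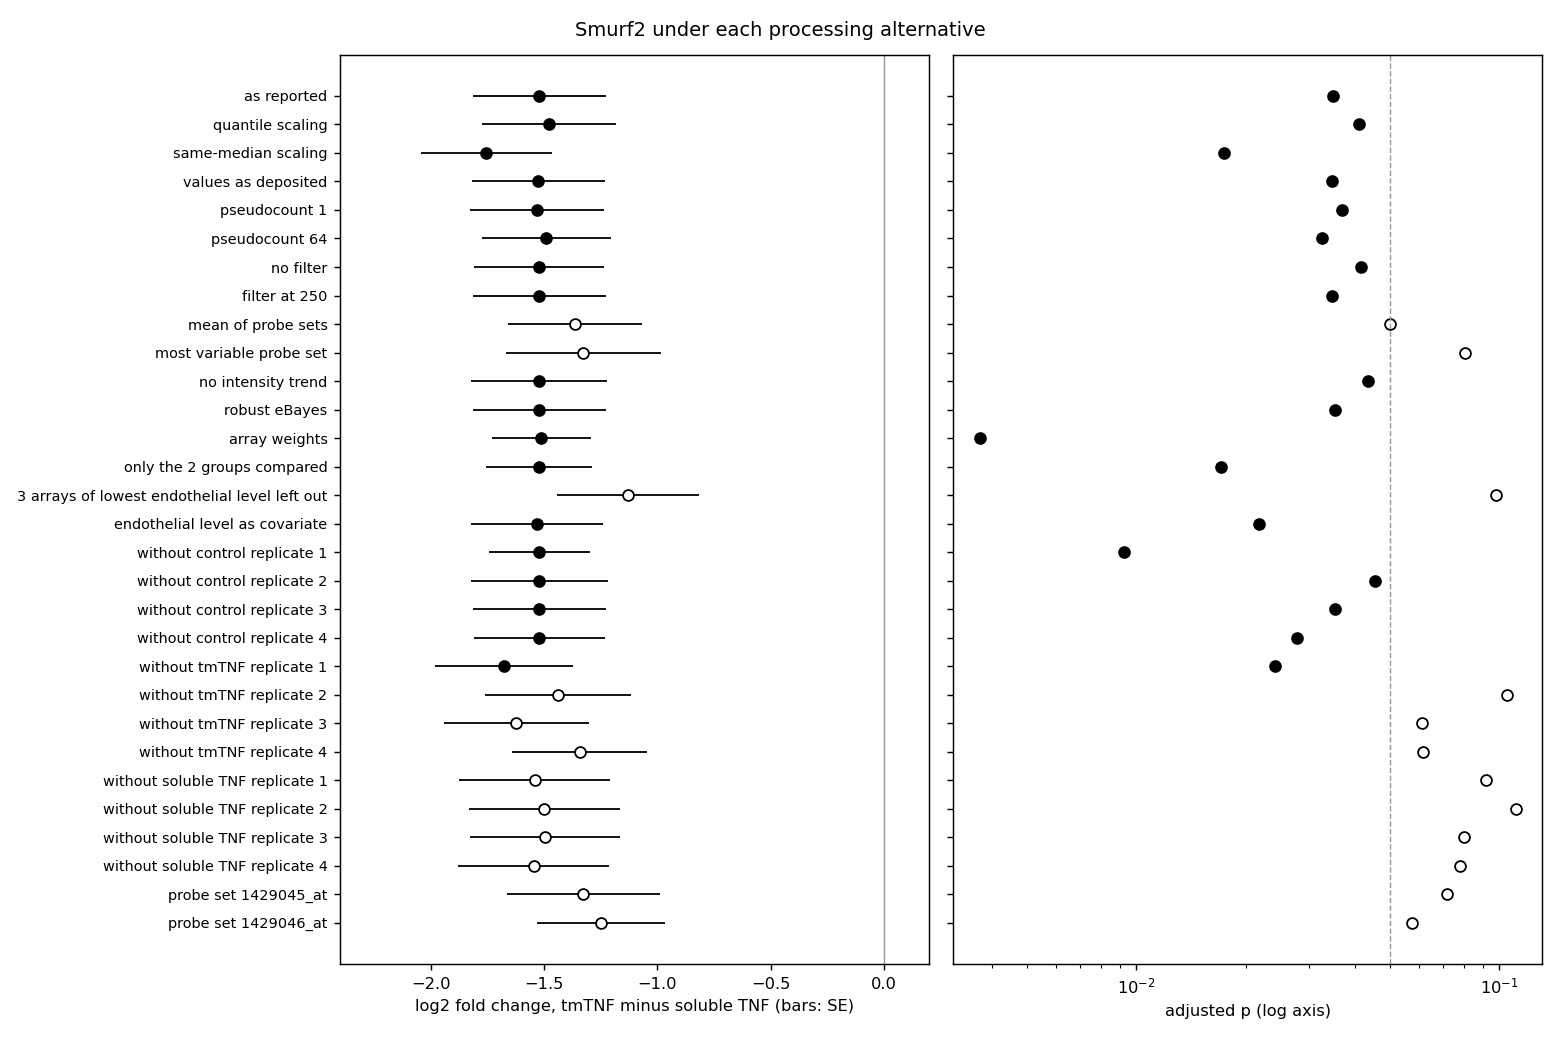
Smurf2, tmTNF minus soluble TNF, as reported and under each alternative, with the log2 fold change and its SE on the left and the adjusted p on a log axis on the right. Filled points pass the threshold of 0.05 (dashed line). All values lie below 0 and between -1.75 and -1.13, while the adjusted p lies on both sides of the line.

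The 3 genes whose log2 signals were most like those of Smurf2 across the 12 arrays were Ehd2, an ATPase found at caveolae (r = 0.925), Paf1, a subunit of a complex that travels with RNA polymerase II (r = 0.899), and Arsj, an arylsulfatase (r = 0.898). These were the highest of 10268 correlations, and they are a description of arrays that share groups and cultures. Ehd2 ran from 1128 to 3304 in tmTNF cells, 4857 to 5728 in soluble TNF cells and 1828 to 5062 in control cells. Paf1 ran from 200.6 to 431.6, 442.2 to 654.7 and 244.5 to 408.4 in the same groups. Arsj was far dimmer in tmTNF cells, at 0.853 to 23.1, than in soluble TNF cells, at 313.3 to 740.9, with controls from 0.903 to 504.3.

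Smurf1, the related ligase, passed the threshold in no comparison. Its signals were 953.7, 1481, 1772 and 884.2 in tmTNF cells, 1686, 1078, 1034 and 1722 after soluble TNF, and 1249, 651.1, 1592 and 1189 in control cells. The 3 groups overlapped throughout. For tmTNF minus soluble TNF the log2 fold change was -0.14 (95% interval -0.84 to 0.57, adjusted p = 0.849), and for soluble TNF minus control it was 0.26 (-0.44 to 0.97, adjusted p = 0.772). The second Smurf1 probe set disagreed in part. It gave 614.7, 699.5, 490.1 and 693.6 in soluble TNF cells, all above the control values of 361.6, 54.3, 395.3 and 295.7, with a log2 fold change of 1.39 ± 0.52 (adjusted p = 0.327).

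Smad6, an inhibitory SMAD prominent in vascular endothelium, was higher on every exposed array than on any control array but did not pass the threshold. Its signals were 377.2, 290.9, 316.9 and 1116 in tmTNF cells, 793.2, 415.9, 462.1 and 626.6 after soluble TNF, and 147.3, 116.6, 122.8 and 230.6 in control cells. The lowest exposed value, 290.9, exceeded the highest control, and tmTNF replicate 4 stood highest. The log2 fold change was 1.48 ± 0.40 for tmTNF minus control (adjusted p = 0.248) and 1.79 ± 0.40 for soluble TNF minus control (adjusted p = 0.191). By unadjusted p, Smad6 ranked 41 of 10269 genes in the second comparison. The exposures themselves differed by -0.31 ± 0.40 (adjusted p = 0.701), and both comparisons share the same 4 controls. Smad6 had 1 probe set. Its GTCTAGAC-bearing window is printed above, and a link between that site and the Smad6 signal was not tested.

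Smad7, the other inhibitor, passed in no comparison and varied widely within groups. Signals were 108.5, 667.4, 191.1 and 608.7 in tmTNF cells, 583.6, 177.7, 437.8 and 676.8 after soluble TNF, and 64.03, 123.8, 521.5 and 275 in control cells. The highest value was 6.15, 3.81 and 8.15 times the lowest in tmTNF, soluble TNF and control cells. The log2 fold change was 0.66 ± 0.69 for tmTNF minus control (adjusted p = 0.91) and 1.10 ± 0.69 for soluble TNF minus control (adjusted p = 0.527). The second Smad7 probe set, of a design that may cross-hybridise, gave 0.59 ± 0.69 and 1.06 ± 0.69.

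Smad3, which carries the signal to the nucleus, gave 1029, 2102, 1885 and 1349 in tmTNF cells, 1406, 1365, 1517 and 1360 after soluble TNF, and 449.8, 887.2, 1193 and 749.3 in control cells. Soluble TNF arrays lay above all controls, and 3 of the 4 tmTNF arrays did. The log2 fold change was 0.97 ± 0.30 for tmTNF minus control (adjusted p = 0.349) and 0.85 ± 0.30 for soluble TNF minus control (adjusted p = 0.309), so neither passed. In the other 2 Smad3 probe sets every exposed array lay above every control array. The dimmer of them had values of 87.5 to 319.8 in tmTNF cells, 89.3 to 233.2 in soluble TNF cells and 11.1 to 49.3 in control cells. All 4 controls of that probe set were under 100, the level used here in place of a background limit, so its size is given as a bound, the mean of the brighter group on the log2(signal + 16) scale against 100. It was at least 1.75-fold higher in tmTNF cells than in controls (adjusted p = 0.102) and at least 1.46-fold higher in soluble TNF cells (adjusted p = 0.206). That probe set reached 100 on 6 arrays, all of them exposed. It therefore passed the signal filter only through the exposed groups, which favoured its separation from controls. Between the exposures Smad3 differed by 0.12 (95% interval -0.53 to 0.77).

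Among the ligands, Tgfb2 stood apart from controls after soluble TNF. Its signals were 197.6, 264.8, 84.4 and 392.9 in tmTNF cells, 242.6, 490.9, 286 and 140.7 after soluble TNF, and 53.5, 82.2, 28.4 and 93.0 in control cells. All 4 controls were under 100, so the size is again a bound. Tgfb2 reached 100 on 7 arrays, all of them exposed, and so passed the signal filter only through the exposed groups. Tgfb2 was at least 2.42-fold higher in soluble TNF cells than in controls (adjusted p = 0.219) and at least 1.92-fold higher in tmTNF cells (adjusted p = 0.368). It did not pass in either comparison, and tmTNF replicate 3 lay within the control range. The soluble TNF arrays were wholly above controls in 3 of the 4 Tgfb2 probe sets, each of which reached 100 only on exposed arrays. The fourth reached 100 on only 3 arrays.

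Tgfb1 gave no such separation. The signals of this ligand, the form most abundant in platelets, were 5769, 959.7, 4180 and 718.8 in tmTNF cells, 1714, 1169, 2460 and 2397 after soluble TNF, and 1416, 2888, 1909 and 3934 in control cells. The tmTNF values split around the others, with replicates 2 and 4 lowest and replicates 1 and 3 highest of all 12 arrays. The log2 fold change was -0.22 (95% interval -1.55 to 1.12) for tmTNF minus control and -0.34 (-1.68 to 0.99) for soluble TNF minus control, with adjusted p = 0.965 and adjusted p = 0.851. The low replicates were also 2 of the 3 arrays of lowest endothelial level. Without those 3 arrays the tmTNF minus control value turned to 0.95 (adjusted p = 0.814).

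Tgfb3 reached 100 on only 5 arrays. It gave 23.7, 191.7, 64.4 and 876.9 in tmTNF cells, 258.3, 17.7, 26.2 and 269.9 after soluble TNF, and 3.41, 71.3, 80.4 and 151.2 in control cells. The highest value was on tmTNF replicate 4, and the groups overlapped. Its intervals were wide, with a log2 fold change of 1.11 (95% interval -1.17 to 3.39) for tmTNF minus control and 0.51 (-1.78 to 2.79) for soluble TNF minus control.

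Of the receptors, Tgfbr1, the kinase that phosphorylates Smad2 and Smad3, gave 716.4, 2807, 1611 and 1232 in tmTNF cells, 414.4, 570.2, 577.6 and 575.2 after soluble TNF, and 874.6, 791.8, 724.9 and 407.6 in control cells. Every tmTNF array lay above every soluble TNF array, and the log2 fold change of 1.39 ± 0.37 missed the threshold (adjusted p = 0.0834). It passed in 2 of 27 alternative settings, without tmTNF replicate 1 (1.71, adjusted p = 0.0295) and with array weights (1.51, adjusted p = 0.0166). For tmTNF minus control the value was 1.05 ± 0.37 (adjusted p = 0.486). The 2 dimmer Tgfbr1 probe sets were under 100 on all 4 soluble TNF arrays and overlapped at tmTNF replicate 1. These 2 passed the signal filter only through tmTNF and control arrays. They were at least 1.52-fold and at least 1.62-fold higher in tmTNF cells than in soluble TNF cells (adjusted p = 0.133 and adjusted p = 0.143).

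Tgfbr2, the receptor that binds the ligand first, gave 9027, 2121, 9010 and 2679 in tmTNF cells, 2052, 5359, 8252 and 2231 after soluble TNF, and 4417, 19190, 1756 and 6683 in control cells. The groups overlapped in every comparison. The log2 fold change was -0.28 ± 0.73 for tmTNF minus control and -0.57 ± 0.73 for soluble TNF minus control (adjusted p = 0.964 and adjusted p = 0.782). In each group the arrays lowest in Tgfbr2 also had the lowest endothelial level, the mean log2(signal + 16) of the 10 endothelial markers. That level was 9.884 and 9.688 on tmTNF replicates 2 and 4, against 11.759 and 12.213 on replicates 1 and 3. It was 10.005 and 10.497 on soluble TNF replicates 1 and 4, against 11.174 and 11.369 on replicates 2 and 3, and 8.913 on control replicate 3, against 11.611 to 12.1 on the other controls. Its part in the Tgfbr2 values was not tested.

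**Figure D3:**
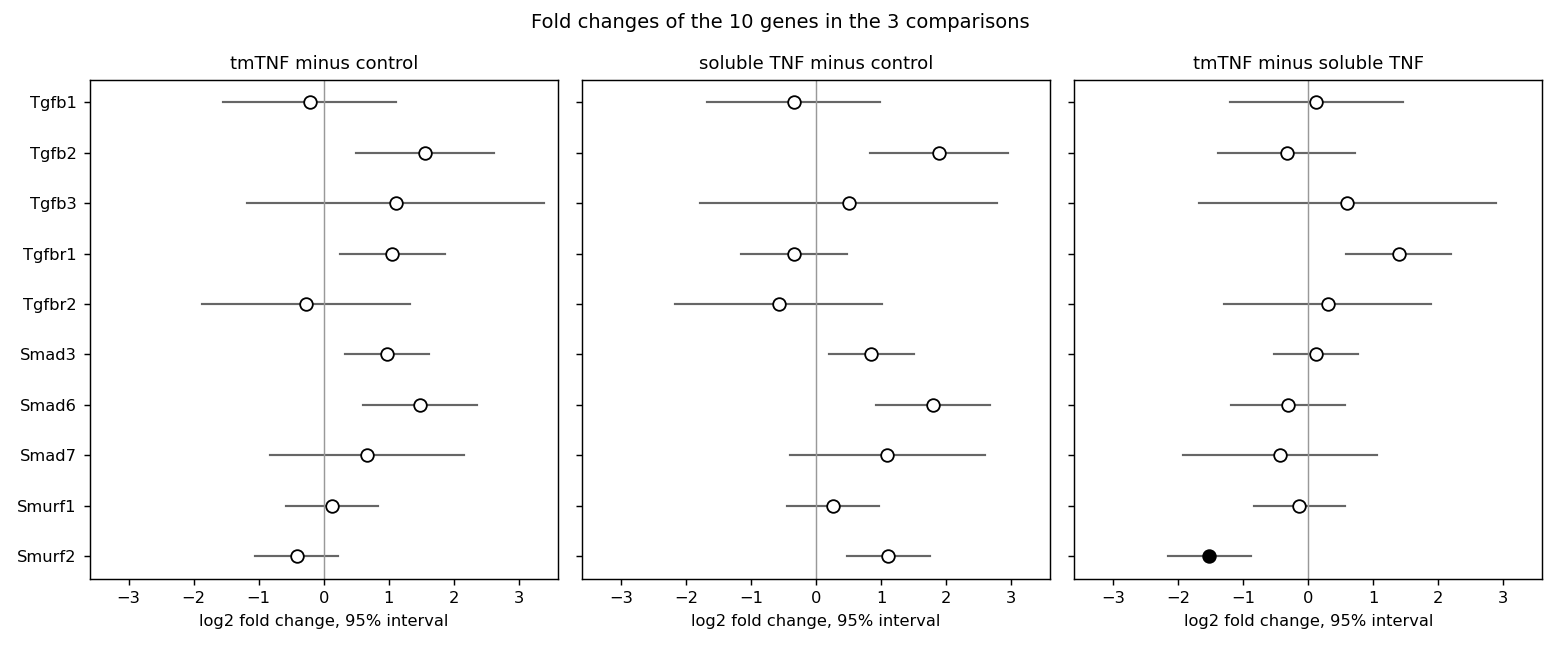
Log2 fold changes (horizontal axis) of the 10 genes with their 95% intervals in the 3 comparisons. The filled point, Smurf2 at -1.52 for tmTNF minus soluble TNF, is the 1 value that passed the threshold. Tgfb2, Smad3 and Smad6 have intervals above 0 in both comparisons with control, which share the 4 control arrays. Tgfb2 was tested only because exposed arrays reached 100.

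By count, 0 of the 10 genes passed between tmTNF and control, where 0.195% of all genes passed. Likewise 0 of 10 passed between soluble TNF and control, where 0.039% of all genes did. At an unadjusted p under 0.05, Tgfb2, Tgfbr1, Smad3 and Smad6 were higher in tmTNF cells than in controls (4 of 10, with 4.81% of all genes). Tgfb2, Smad3, Smad6 and Smurf2 were higher in soluble TNF cells than in controls (4 of 10, with 5.4% of all genes). Tgfb2 was tested only because exposed arrays reached 100, so the filter favoured its place in these counts and those below. At that level 0 of 10 were lower in tmTNF cells (2.75% of all genes) and 0 of 10 in soluble TNF cells (7.28%). Between tmTNF and soluble TNF, Tgfbr1 was higher (12.4% of all genes) and Smurf2 lower (7.49%). The median log2 fold change was 0.82 for tmTNF minus control (0.026 over all genes) and 0.68 for soluble TNF minus control (-0.045 over all genes). Because the members were chosen with earlier results of these data known, these shares and medians are no test of the set. The soluble TNF arrays lay wholly above the controls for Tgfb2, Smad3, Smad6 and Smurf2 (3.67% of all genes), and the tmTNF arrays did so for Smad6 (2.19% of all genes). Arrays wholly below the controls were seen for 0 of 10 with tmTNF (0.984% of all genes) and 0 of 10 with soluble TNF (4.44%). For tmTNF minus soluble TNF, Tgfbr1 was wholly above (10.3% of all genes) and Smurf2 wholly below (5.86%). Without the 3 arrays of lowest endothelial level, the same 4 genes lay above controls after soluble TNF (6.05% of all genes). In tmTNF cells Tgfb1, Smad3 and Smad6 then lay above controls, with 2 arrays against 3 (10.5% of all genes).

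**Figure D4:**
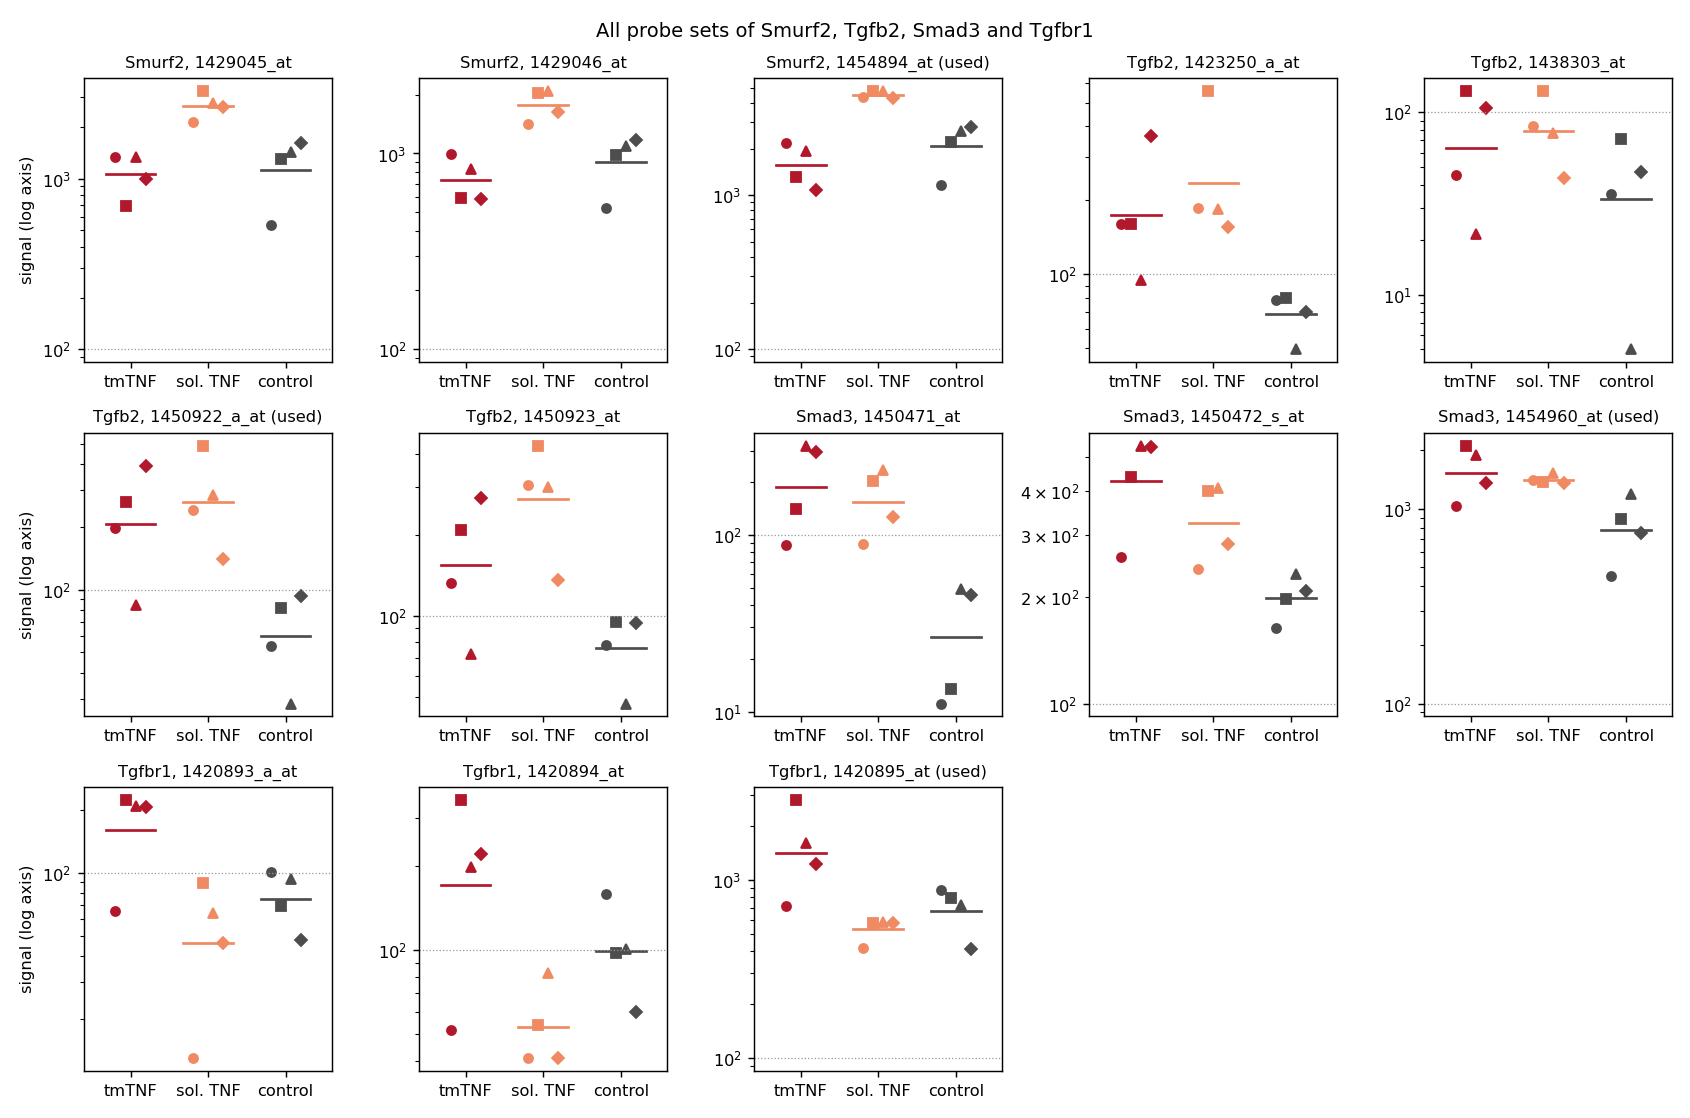
Signal (vertical log axes) of every probe set of Smurf2, Tgfb2, Smad3 and Tgfbr1 in tmTNF, soluble TNF and control cells, with symbols as replicates 1 to 4, bars as the mean on the log2(signal + 16) scale and the dotted line at 100. The soluble TNF arrays lie above all others in the 3 Smurf2 probe sets, and the controls lie lowest in the first 2 Smad3 probe sets. The first of these Smad3 probe sets reached 100 only on exposed arrays.

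Of 54 other genes of the pathway, 44 were tested in 5 lists, which were also chosen with earlier results of these data known. Smad9, Ltbp2, Itgb6, Itgb8, Tgfbi, Tagln and Postn stayed below the filter, and the remaining genes were not analysed here. Between tmTNF and control 0 of 44 passed (0.195% of all genes), with a median log2 fold change of 0.069 (0.026 over all genes). Between soluble TNF and control 0 of 44 passed (0.039% of all genes), with a median of 0.12 (-0.045 over all genes). Between tmTNF and soluble TNF 1 of 44 passed, the matricellular TGF-beta target Ccn2, where 1.22% of all genes passed, and the median was -0.215 (0.079 over all genes). Ccn2 gave 617.3, 855.7, 538 and 1165 in tmTNF cells and 6254, 11440, 5852 and 5344 in soluble TNF cells, with controls at 1501, 544.2, 3557 and 841.5. It was 8.89-fold lower in tmTNF cells than in soluble TNF cells (log2 -3.15 ± 0.49, adjusted p = 0.0126). Like Smurf2, it had soluble TNF arrays wholly above both other groups.

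The 15 tested TGF-beta targets went both ways in every comparison. Their median was -0.359 for tmTNF minus control (6 higher, 9 lower) and 0.424 for soluble TNF minus control (10 higher, 5 lower). It was -0.65 for tmTNF minus soluble TNF (3 higher, 12 lower). The brightest of the 15 was Id3, an inhibitor of helix-loop-helix transcription factors. Id3 gave 1227 to 10020 in tmTNF cells, 4781 to 8822 in soluble TNF cells and 917.8 to 6505 in controls, and it passed in no comparison (limma adjusted p = 0.914, 0.618 and 0.875). In the list of ligand storage and release, 0 of 7 passed in any comparison. Its brightest member was Itgav, a chain shared by integrins that can free latent TGF-beta. Itgav gave 1424 to 4881 in tmTNF cells, 2985 to 5420 in soluble TNF cells and 663.2 to 3945 in controls. Thbs1 of that list gave 39.15 to 577.5, 987.2 to 5608 and 31.43 to 883.6 in the same groups. Its log2 fold change was 4.51 ± 0.98 (SE) for soluble TNF minus control (limma adjusted p = 0.174). For tmTNF minus soluble TNF it was -4.21 ± 0.98 (limma adjusted p = 0.06). Of the 7, 5 were higher and 2 lower in the former comparison, and 2 higher and 5 lower in the latter.

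Among 13 other regulators 0 passed in any comparison. Strap, which holds Smad7 at the receptor, was the brightest, at 5126 to 6854 in tmTNF cells, 6505 to 7465 in soluble TNF cells and 5254 to 6713 in controls. Pmepa1 of that list gave 547.2 to 1584, 1443 to 1847 and 35.48 to 651.6 in the same groups. Its log2 fold change was 2.15 ± 0.68 (SE) for tmTNF minus control (limma adjusted p = 0.372). For soluble TNF minus control it was 2.96 ± 0.68 (limma adjusted p = 0.195). Of the 13, 8 were higher and 5 lower in the former comparison, and 7 higher and 6 lower in the latter. Smad4, the partner of Smad3, was the brightest of 4 other SMADs, with overlapping groups at 2460 to 3558, 2586 to 4819 and 2720 to 4688 in tmTNF, soluble TNF and control cells. Eng, an endothelial coreceptor, was the brightest of 5 other receptors, at 2042 to 3800, 2282 to 3917 and 1713 to 4407. In both of these lists 0 members passed in any comparison.

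**Figure D5:**
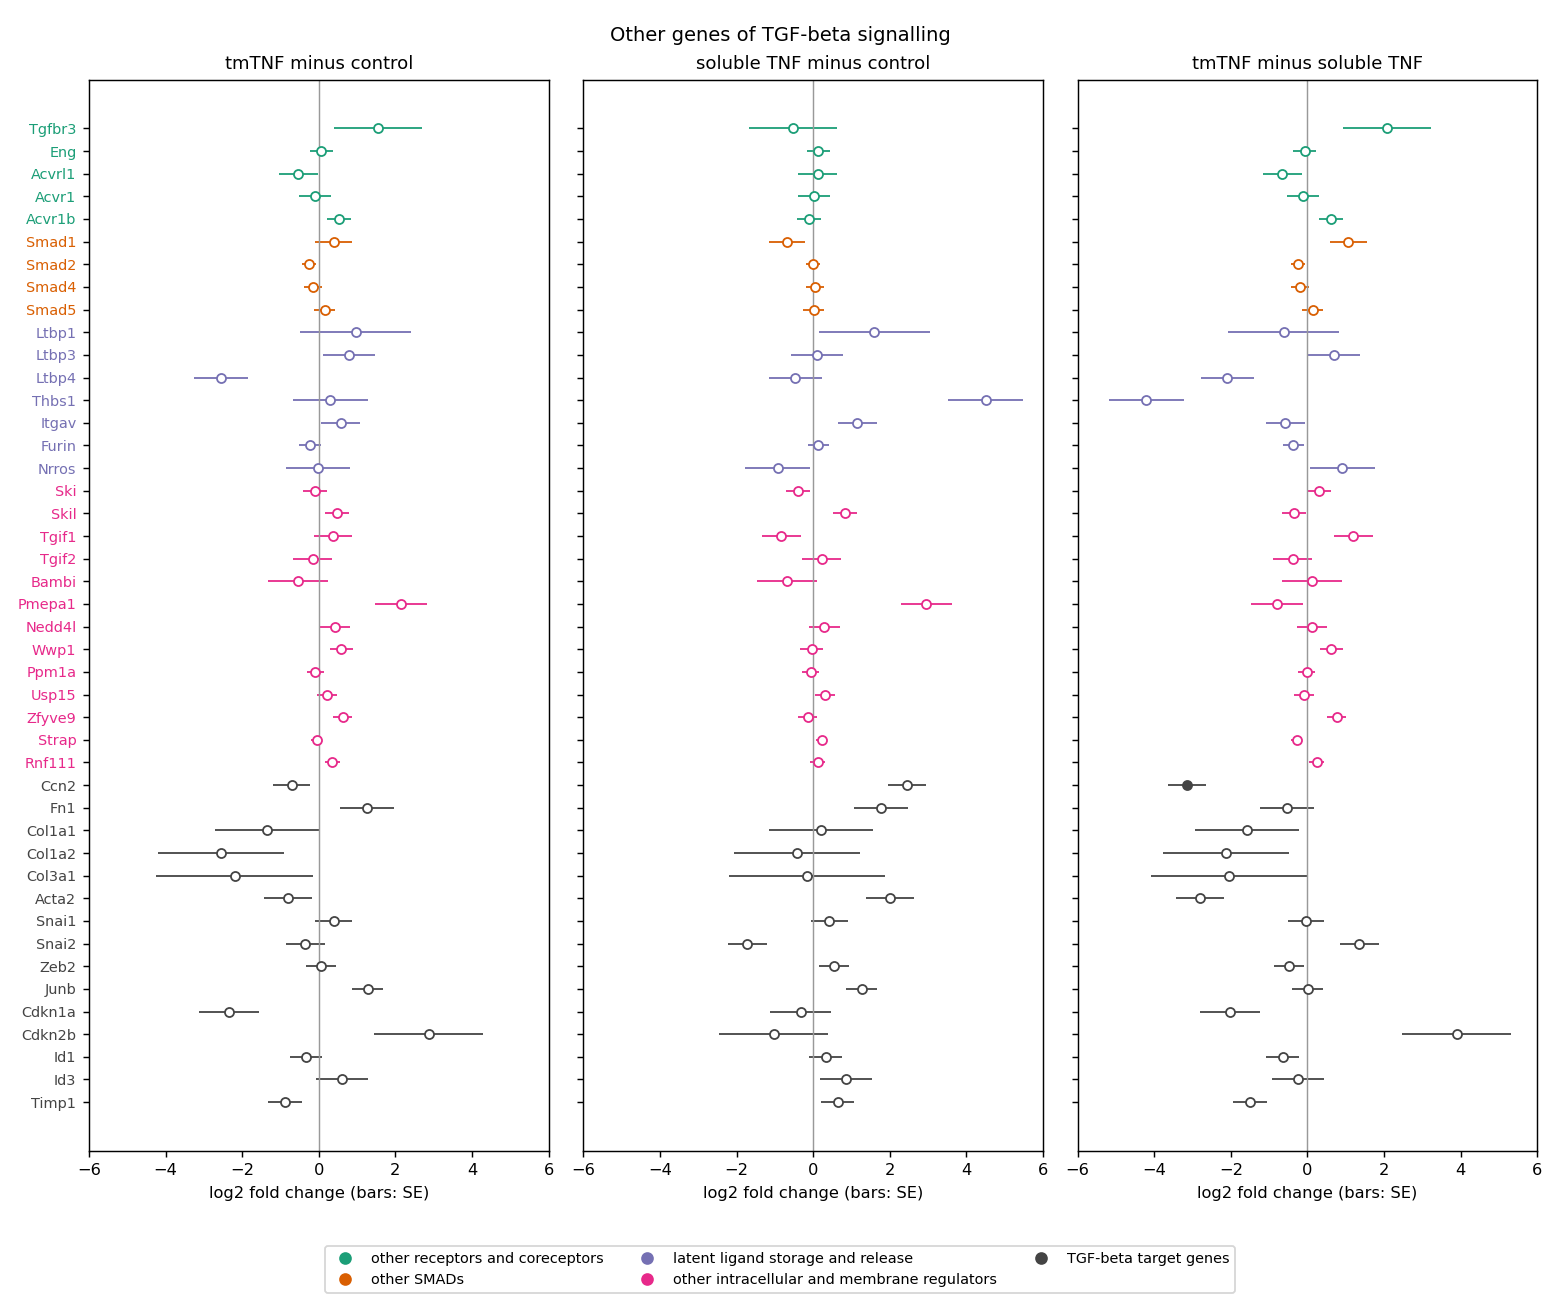
Log2 fold changes with SE (horizontal axes) of the 44 other pathway genes in the 3 comparisons, coloured by list, with a filled point past the threshold. Ccn2, at -3.15 for tmTNF minus soluble TNF, is the filled point. Its value for soluble TNF minus control, 2.44, lies above 0.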

How the data were processed

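RNA of cultured mouse endothelial cells was measured on 12 Affymetrix arrays, with about 5 micrograms of total RNA each per the labels. The deposited intensity values are linear signals, 1 per probe set and array, made by the authors with MAS5 per the submitters' processing notes; its version and settings are not given in the sources used here. They ran from 0.1 to 95672, and each array had a 2% trimmed mean of 1000. After the 64 control probe sets were set aside, arrays were brought to a common trimmed mean of 500 and transformed to log2(signal + 16). The platform annotation names 1 gene for 34945 of 45101 probe sets, several for 932 and none for 9160. GRCm38.p6 RefSeq gene identifiers matched 34741, and 0 symbols changed. The 18022 named probe sets with a signal of 100 on at least 4 arrays were kept, and the brightest of each gene was used (10269 genes).

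Samples were grouped from GEO's labels, and replicate numbers, given in accession order, pair no samples. The 3 groups were fitted in limma 3.58.1 (R 4.3.3) with lmFit and eBayes with an intensity trend, two-sided, and the method was tested on simulated data. If a gene stayed under 100 throughout the dimmer group, the fold is given as at least the brighter group's mean against 100. Detection calls were not used, so 100 stands in for background, and 4 arrays a group limit the precision. The labels give no batch. Named genes were all 10 members, the 3 genes most like a called member, every called gene of the 5 other lists and the brightest of each list. Genes named for cell type or Y-linked signal fall outside that rule. Dcn, Pdgfrb, Col1a2, Col3a1, Pmepa1 and Thbs1 were named after their values were seen. Members and lists were chosen with earlier results of these data known. Alternatives changed scaling, pseudocount, filter, probe set choice, variance model, samples and endothelial level. NF-kB sites were sought by the consensus of that name on both strands.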

Additional observations from a re-analysis of the deposited data

Results flagged for a closer look

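Among the 10 genes in 3 groups, 1 value stood far from the other 3 of its group, a kind of gap that chance gives in about 1 of 20 groups. Tgfbr1 gave 414.4 on soluble TNF replicate 1, against 570.2 to 577.6 on the other 3 soluble TNF arrays. Without that array Tgfbr1 was 1.28 ± 0.41 (SE) higher on the log2 scale in tmTNF cells than in soluble TNF cells (limma adjusted p = 0.216).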

How the results depend on the processing

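The number of the 10 genes called stayed at 0 for tmTNF minus control and at 0 for soluble TNF minus control under all 27 alternatives. For tmTNF minus soluble TNF it was 1. It became 0 with the mean of a gene's probe sets, 0 with the most variable probe set, 0 without the 3 arrays of lowest endothelial level and 2 with array weights. Leaving out 1 array it ran from 0 to 2. Counts over all genes, leaving out 1 array, ran from 16 to 66 (20 as reported) for tmTNF minus control, 0 to 22 (4) for soluble TNF minus control and 28 to 233 (125) for tmTNF minus soluble TNF. For tmTNF minus soluble TNF, 439 were called with only the compared groups, 333 with endothelial level as a covariate, 239 with same-median scaling and 1176 with array weights. With the covariate, 45 were called for tmTNF minus control and 7 for soluble TNF minus control, and without the 3 arrays 4 and 17. The fit of compared groups gave 2 for soluble TNF minus control. With same-median scaling the median over all genes was -0.149, against 0.079 as reported, for tmTNF minus soluble TNF, and -0.118 against 0.026 for tmTNF minus control. It split the 239 calls into 67 higher and 172 lower, against 98 and 27 as reported.

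Of 840 values of single genes under alternatives, 796 kept direction and side of the threshold, 12 lost a call, 2 gained one and 30 changed sign. No value that changed sign was called. For tmTNF minus control, same-median scaling gave -0.0167 for Smurf1, and leaving out the 3 arrays gave 0.9548 for Tgfb1, -0.2182 for Tgfb3, 0.1235 for Tgfbr2 and 0.0878 for Smurf2. For tmTNF minus soluble TNF, same-median scaling gave -0.107 for Tgfb1 and -0.1138 for Smad3, array weights gave -0.0523 for Tgfb1 and -0.1285 for Tgfb3, and leaving out the 3 arrays gave -0.8635 for Tgfb3 and -0.0169 for Smad3. Leaving out 1 array, values ran as follows for tmTNF minus control: Tgfb1 from -0.716 to 0.2763, Tgfbr2 from -0.8328 to 0.3132, Smurf1 from -0.1252 to 0.298. For soluble TNF minus control, Tgfb3 ran from -0.1254 to 1.0431 and Tgfbr2 from -1.1295 to 0.0166. For tmTNF minus soluble TNF, Tgfb1 ran from -0.374 to 0.6182, Tgfb2 from -0.6254 to 0.05, Tgfb3 from -0.2371 to 1.2607, Tgfbr2 from -0.0225 to 0.6717, Smad3 from -0.0324 to 0.3072, Smad7 from -0.8239 to 0.0273 and Smurf1 from -0.3127 to 0.0172. The cause was not tested. No paired analysis was possible because the labels give no replicate numbers. Signals near or under 100, as for Tgfb2 and Tgfb3, are the least precise.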
